A study of Mus musculus with 45 samples.

Results

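The comparison described here takes 6 of the 45 libraries of a mouse study on Notch signalling in B cells: follicular B cells cultured with lipopolysaccharide (LPS) on OP9-DL1 stroma, 3 libraries at 44 h and 3 at 68 h. The 6 libraries were chosen by their labels alone, and all genes of the table were considered. The cells were purified from the spleens of B6.Blimp1GFP/+ mice, in which 1 copy of Blimp1 carries a GFP reporter, and every group of the series shares that genotype. The LPS came from Salmonella enterica and was given at 10 µg/mL. OP9 is a stromal line from mouse bone marrow, and its OP9-DL1 form displays Delta-like 1, a ligand of Notch receptors. At the end of culture viable cells were sorted into Trizol, and polyA RNA was sequenced after cDNA amplification with a SMART-seq kit. Values are TPM, a share of all transcripts of a library that is corrected for transcript length, divided here by a size factor for each library and called scaled TPM. Beside this comparison stand the same 24 h step with LPS on OP9 without the ligand, and with anti-IgM F(ab')2 at 10 µg/mL on OP9-DL1, each with 3 libraries at 44 h and 3 at 68 h. A Blimp1+ sort from LPS cultures on OP9-DL1 (3 libraries, with no time in the labels) is given for levels only. The labels do not say whether Blimp1-GFP+ cells were kept in the other libraries, nor whether replicates came from separate mice or cultures, so a p-value measures only the spread between these samples, which may be technical.

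Follicular B cells are resting recirculating cells that carry IgM, IgD and the low-affinity IgE receptor CD23 (Fcer2a). LPS binds TLR4 on B cells and drives growth, division, class switching and, in part of the cells, differentiation into plasmablasts under Blimp1 (Prdm1), Irf4 and Xbp1. A growing blast makes ribosomes, imports amino acids and copies its DNA, whereas a resting cell holds these programmes low and carries growth inhibitors such as Btg1 and Mxd4. Delta-like 1 binds Notch2 on B cells, the receptor needed for marginal zone B cells.

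The 6 libraries held an estimated 5.92 to 8.62 M reads each (3.07 to 29.1 M over all 45). Replicate 3 at 68 h stood apart: Actb, the gene of β-actin, had 85337 TPM there, 8.53% of all TPM, against 871 to 1870 TPM in the other 5 libraries. Its log2 values correlated across genes at 0.835 and 0.846 with the other 2 libraries at 68 h, whereas the remaining pairs within a time reached 0.973 to 0.983 (genes are not independent replicates). Cfl1, which encodes the actin-severing cofilin, was listed at 0 in replicate 3 and at 1115 to 1754 scaled TPM in the other 5 (chosen after its values were seen). Replicate 3 is 1 of 10 libraries of the series above 5000 TPM of Actb, so the count that leads a comparison or a list is given also without it, and without all 10, where it differs. Of the 8 defining B cell genes none was at 0 in any library, and they summed to between 6151 and 17636 scaled TPM. The 10 defining stromal genes summed to between 9.59 and 42.5 scaled TPM, with Lum at 0 in all 6. T cell genes summed to between 19.8 and 54.5 scaled TPM, of which Lck alone made at least 19.3, with Cd3e at 0 in all 6. Myeloid, erythroid and NK cell genes each summed to at most 8.70 scaled TPM, with S100a9, Fcgr1, Hba-a1, Gzma and Klrd1 at 0 in all 6. Dll1, which the stroma carries, was found at 1.29, 0.521 and 3.99 scaled TPM at 44 h and at 2.64, 9.68 and 1.07 at 68 h, against 0 to 0.779 in the LPS libraries on OP9 at those times. Replicate 2 at 44 h lay within that range and the other 5 libraries above it.

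From 44 to 68 h genes for making ribosomes, amino acid supply, DNA replication and protein breakdown fell, and genes of resting follicular cells, antigen presentation, growth arrest and the interferon response rose, each in part of its list. In the limma model 1115 of 15614 genes tested (7.14%) passed an adjusted p of 0.05, 468 higher (3.00%) and 647 lower (4.14%) at 68 h. Such genes are called higher or lower below. The higher calls were 42.0% of all calls, and 52.2% when TPM were used as deposited, without size factors (315 higher and 288 lower). Changes are differences of log2(scaled TPM + 1) with their standard error (SE), a scale that understates changes of genes near 0. Among the called genes 1112 had groups that did not overlap. Over all genes tested, 17.5% had all 3 libraries at 68 h above all 3 at 44 h, and 13.5% all 3 below. The median change of all genes was 0.13. In bulk RNA, fewer cells of a type and less RNA per cell cannot be told apart.

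Replicate 3 at 68 h was often the farthest from the 44 h libraries: it was the highest of its group for 268 of the 468 higher genes and the lowest for 453 of the 647 lower ones. Without it 646 genes were called (4.14%), 288 higher (1.84%) and 358 lower (2.29%). Of these, 554 were among the 1115, and none of the 1115 changed sign. Leaving out a 44 h library moved the count as far, to 582, 677 and 628 without replicates 1, 2 and 3. Without the 10 libraries of high Actb in any group, 2086 genes were called (13.4%), 1007 higher (6.45%) and 1079 lower (6.91%), and 1007 of the 2086 were among the 1115. This fit, called the low-Actb fit below, also lacks replicate 3 and rests on the same 5 libraries of this comparison, but it pools the spread over fewer libraries elsewhere. Of the 110 called genes that are named, 62 were called without replicate 3, and 107 in the low-Actb fit, all but Il6, Mylpf and Egln1.

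**Figure D1:**
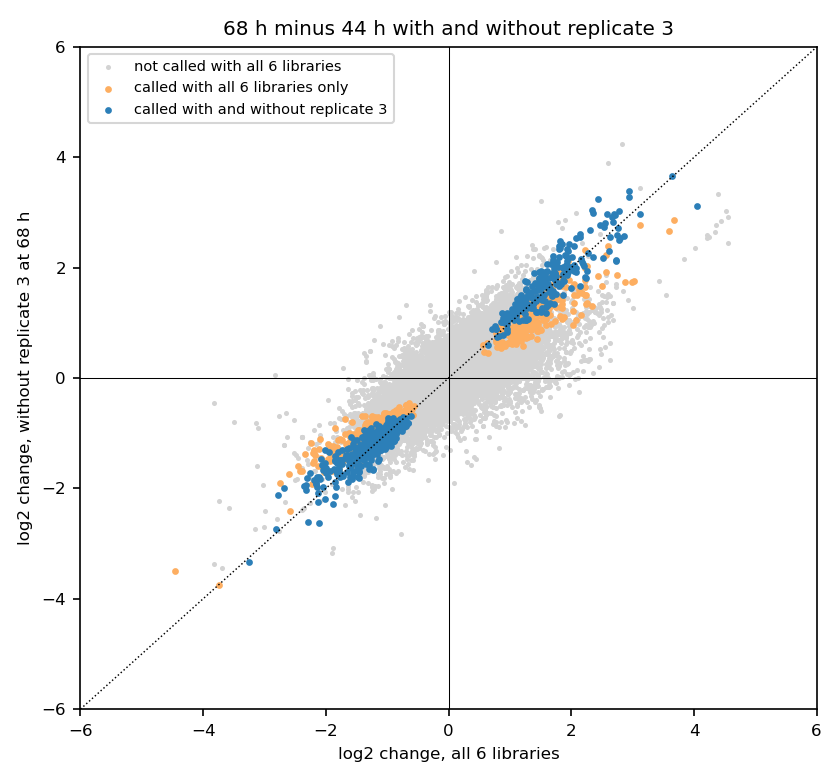
Change of each tested gene from 44 to 68 h with LPS on OP9-DL1, in log2(scaled TPM + 1), with all 6 libraries (horizontal) against the same without replicate 3 at 68 h (vertical); the dotted line marks equal values. Blue points are the 554 genes called both ways, orange points those called with all 6 libraries only, grey points genes not called with all 6, and no called gene lies in a quadrant of opposite signs.

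Most genes for ribosome biogenesis fell. Of 28 tested members 22 were lower and none higher (17 lower without replicate 3, 25 in the low-Actb fit), with a median change of -1.28 against 0.13 over all genes, and all 28 estimates were below 0. Rrp9, a protein of the U3 particle that cuts ribosomal precursor RNA, was at 177, 198 and 178 scaled TPM at 44 h and 50.0, 60.4 and 30.7 at 68 h. All 68 h libraries lay below all 44 h ones, and its change was -2.0 ± 0.28 (SE; adjusted p 1.2e-05). Rrp12, an export factor of ribosomal subunits, went from 36.2, 35.8 and 33.5 at 44 h to 11.8, 9.10 and 4.27 at 68 h (-2.04 ± 0.41, adjusted p 0.0012). Again no library overlapped, and replicate 3 was the lowest. Bop1, which matures the large subunit RNA, was at 123, 134 and 128 at 44 h and 46.1, 38 and 13.2 at 68 h, a change of -2.12 ± 0.46 that was -1.59 without replicate 3 (adjusted p 0.053, and 1.8e-06 in the low-Actb fit). The rRNA methyltransferase Nop2 changed by -1.95 ± 0.54, or -1.34 without replicate 3 (adjusted p 0.22, and 1.6e-06 in the low-Actb fit). Srm, the enzyme that makes spermidine, stood at 964, 1058 and 768 scaled TPM at 44 h and 227, 247 and 103 at 68 h, a change of -2.35 ± 0.48 (adjusted p 0.0014). Its groups were well apart, and the call held without replicate 3 (adjusted p 0.024). Among the largest decreases were also Wdr18 (-2.74 ± 0.75), a factor of the complex that processes large ribosomal subunits, Wdr4 (-2.42 ± 0.52), part of a tRNA methyltransferase, and Ifrd2 (-2.68 ± 0.51), which binds idle ribosomes. Of these only Ifrd2 was called without replicate 3, and all 3 were called in the low-Actb fit. Of the structural proteins of the ribosome 1 of 31 (Rpl27, -1.39 ± 0.39) was lower and none higher, with a median change of -0.21. None was called without replicate 3, and 3 were lower in the low-Actb fit.

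Part of the amino acid supply genes fell too, in a list of genes run by the stress factor ATF4 and of serine and one-carbon enzymes. Of 26 members 13 were lower and none higher (7 lower without replicate 3, 12 in the low-Actb fit), with a median change of -1.09. Slc7a5, which carries large neutral amino acids into activated lymphocytes, was at 74, 65.7 and 64.9 scaled TPM at 44 h and 20.8, 20.4 and 3.96 at 68 h. Its 68 h libraries were all below the 44 h ones and replicate 3 was the lowest. Its change of -2.39 ± 0.55 (adjusted p 0.0052) became -1.68 without replicate 3 (adjusted p 0.091, and 0.0033 in the low-Actb fit). Chac1, an ATF4 target that breaks down glutathione, was at 38.9, 50.4 and 42 at 44 h and 10.6, 13.4 and 5.52 at 68 h (-2.11 ± 0.40, adjusted p 6.8e-04) and was called with or without that library. Trib3, a pseudokinase that ATF4 induces, changed by -2.21 ± 0.54, and Shmt2, the mitochondrial enzyme that turns serine to glycine, by -2.20 ± 0.63, which became -1.55 and -1.37 without replicate 3 (adjusted p 0.13 and 0.3, or 0.015 and 3.1e-07 in the low-Actb fit). Psph, which makes serine in its last step, went from 139.8, 125 and 168 at 44 h to 48.4, 54.1 and 55.1 at 68 h. The groups did not overlap, and the change of -1.43 ± 0.23 (adjusted p 8.7e-05) was called without replicate 3 too (adjusted p 5.6e-04).

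Many DNA replication genes were lower at 68 h. All 35 tested members had an estimate below 0, 18 were lower and none higher, and the median change was -1.01. Without replicate 3, 6 were lower and the median was -0.81, and in the low-Actb fit, which lacks that library too, 25 were lower and the median was -0.83. Mcm5, a subunit of the replicative helicase, was at 235, 259 and 233 scaled TPM at 44 h and 108, 102 and 38.2 at 68 h. The groups did not overlap, and replicate 3 was at less than the other 68 h libraries. Its change was -1.68 ± 0.39 (adjusted p 0.0048), or -1.20 without replicate 3 (adjusted p 0.081, and 0.0016 in the low-Actb fit). Mcm2 of the same helicase (-2.19 ± 0.57), Orc1 of the complex that marks origins (-1.68 ± 0.39) and Rrm2, the ribonucleotide reductase subunit that supplies deoxynucleotides (-1.58 ± 0.39), were also lower. Without replicate 3 their changes were -1.33, -1.30 and -1.29 and not called (adjusted p 0.22, 0.071 and 0.08). In the low-Actb fit they were -1.35, -1.32 and -1.31 and called (adjusted p 7.0e-04, 0.0032 and 0.005).

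Promoters of the replication genes were read from RefSeq (GRCm38.p6, 250 bases before the start site) for the E2F motif, written TTTGGCGC or TTTCCCGC and searched on both strands. It was found in 6 of the 29 members with a promoter in the table, among them 4 of 16 that were lower, and in 2.82% of 10554 tested genes with a promoter. The sequences of Mcm5 and Cdc6, which loads the helicase, are shown because they are lower replication genes that hold it. The motif is in capitals as it reads on the strand of the gene, where both promoters hold its reverse complement, and both genes were chosen for display after their values were seen (Cdc6 changed by -1.07 ± 0.28, adjusted p 0.015). Mcm5 lies on the plus strand at chr8:75109259-75109508, and Cdc6 on the plus strand at chr11:98907901-98908150. A match is a description of the letters, not a test of binding.
Mcm5: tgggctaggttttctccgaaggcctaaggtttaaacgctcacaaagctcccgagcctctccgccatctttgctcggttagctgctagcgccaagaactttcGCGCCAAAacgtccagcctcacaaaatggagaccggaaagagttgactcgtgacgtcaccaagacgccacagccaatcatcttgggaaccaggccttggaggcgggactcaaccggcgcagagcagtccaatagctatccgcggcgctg
Cdc6: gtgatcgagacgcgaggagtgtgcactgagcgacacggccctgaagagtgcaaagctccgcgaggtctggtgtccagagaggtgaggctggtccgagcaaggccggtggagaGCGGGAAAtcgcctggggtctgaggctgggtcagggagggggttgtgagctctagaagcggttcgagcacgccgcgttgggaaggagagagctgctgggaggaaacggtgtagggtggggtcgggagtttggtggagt

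Cell division genes moved unevenly. Of 30 mitosis genes 6 were lower and none higher, with a median change of -0.55. Without replicate 3 only Ccnb1 was lower, with the same median, and in the low-Actb fit 7 were lower. Ccnb1, the cyclin that drives entry into mitosis, was at 450.2, 527 and 432 scaled TPM at 44 h and 186, 199 and 145 at 68 h (-1.41 ± 0.33, adjusted p 0.0064). Its groups did not overlap. The kinases Aurka (-1.63 ± 0.44) and Plk1 (-1.6 ± 0.49) and the ubiquitin enzyme Ube2c (-1.31 ± 0.34) were also lower. Without replicate 3 they were not called (adjusted p 0.24, 0.3 and 0.13), and in the low-Actb fit they were (-1.02, -1.17 and -0.99, adjusted p 0.001, 0.0021 and 0.031). Mki67, the proliferation marker, was at 29.1, 22.9 and 28.1 at 44 h and 27.3, 19.7 and 26.6 at 68 h, and these ranges overlapped (adjusted p 0.83). Ccne1, the cyclin of S phase entry, went from 73.1, 75.7 and 61.3 at 44 h to 21, 23 and 22.4 at 68 h. The 3 libraries at 68 h were nearly equal, and the change of -1.61 ± 0.31 (adjusted p 6.8e-04) held without replicate 3 (adjusted p 0.0036). Cdk4, a kinase of G1 (-1.46 ± 0.38), and its cyclin Ccnd3 (-1.68 ± 0.53) were also lower. Their changes without replicate 3 were -1.12 and -0.74 (adjusted p 0.13 and 0.57), and in the low-Actb fit -1.14 and -0.76 (adjusted p 2.6e-06 and 0.0071). Myc, the driver of growth genes, was at 182, 166 and 185 at 44 h and 104, 114 and 242 at 68 h. Replicate 3 was the highest and the other 68 h libraries the lowest of the 6, so the groups overlapped and the change of -0.32 ± 0.38 was not called (adjusted p 0.68). It was called in the low-Actb fit (-0.72, adjusted p 0.025). Of 18 genes of the Myc network and the D and E cyclins 2 were higher and 3 lower (1 and 2 without replicate 3, 3 and 6 in the low-Actb fit).

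Part of the genes for protein breakdown, and fewer of those for mitochondrial energy supply, fell in the same step. Among 29 proteasome subunits 14 were lower and none higher (8 lower without replicate 3, 23 in the low-Actb fit), the median change was -0.77, and all 29 estimates were below 0. Psmb3, a subunit of the catalytic ring, went from 1523, 1682 and 1405 scaled TPM at 44 h to 613, 749 and 534 at 68 h (-1.29 ± 0.21, adjusted p 1.1e-04). No 68 h library came near the 44 h range. Psmc4, an ATPase of the cap, changed by -1.10 ± 0.20 and was called without replicate 3, whereas Psmb5 (-1.48 ± 0.38) and Psmd3 (-1.6 ± 0.44) were not (adjusted p 0.18 and 0.26, or 0.013 and 3.6e-05 in the low-Actb fit). Of 31 nuclear genes for oxidative phosphorylation 7 were lower and none higher (2 lower without replicate 3, 11 in the low-Actb fit), with a median of -0.62. Cycs, which is cytochrome c, was at 509, 344 and 416 at 44 h and 122, 125 and 118 at 68 h (-1.77 ± 0.25, adjusted p 1.3e-05). The 68 h libraries agreed closely and lay far under all at 44 h. Uqcrfs1 of complex III changed by -1.11 ± 0.18 (adjusted p 8.8e-05). Of the genes encoded in mitochondrial DNA none was lower and 1 of 12 (mt-Co1, 1.06 ± 0.34) was higher (adjusted p 0.3 without replicate 3, and 0.033 in the low-Actb fit), with a median of 0.57. Some genes of other mitochondrial proteins were lower too, named from the heat shock list and from the 12 largest decreases. Hspd1, the matrix chaperonin HSP60, was at 568, 420.3 and 598 at 44 h and 147, 135 and 151 at 68 h (-1.85 ± 0.22, adjusted p 8.6e-07). Its partner Hspe1 changed by -1.85 ± 0.37 and Timm10, an import chaperone, by -2.32 ± 0.42, and each was called without replicate 3. Tomm40, the import pore, changed by -2.61 ± 0.73 and Coq4, a factor of coenzyme Q synthesis, by -2.34 ± 0.56, and neither was (adjusted p 0.24 and 0.15, or 3.1e-07 and 0.006 in the low-Actb fit).

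**Figure D2:**
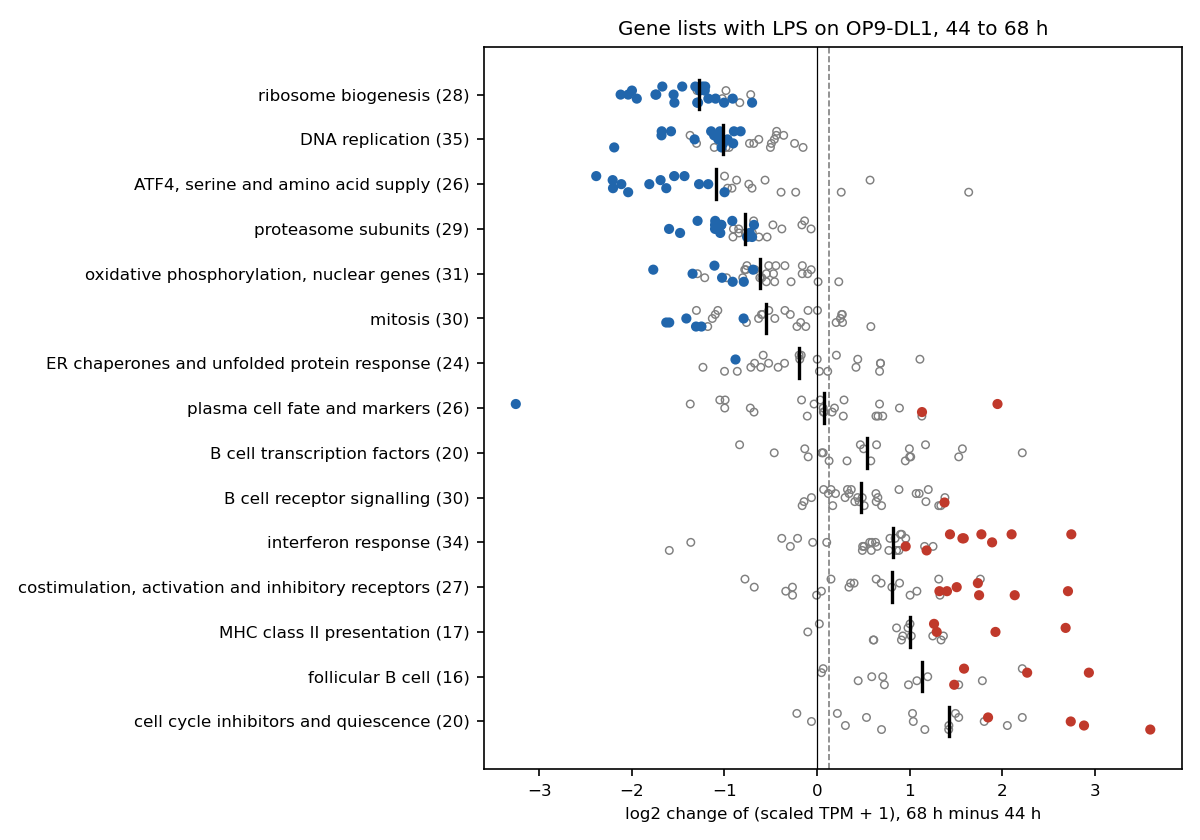
Each point is 1 tested gene of a list, placed by its change from 44 to 68 h with LPS on OP9-DL1 in log2(scaled TPM + 1); filled points are called (blue lower, red higher), bars are list medians, the number tested stands in parentheses, and the dashed line marks the median of all genes (0.13). Ribosome biogenesis genes, with 22 of 28 called lower, lie wholly left of 0, and the 16 follicular B cell genes wholly right of it.

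A minority of the genes of resting follicular B cells rose. All 16 tested members had an estimate above 0, with a median of 1.14, and 4 were higher, the same number as without replicate 3, or 8 in the low-Actb fit. Ighd, the constant region of IgD, went from 45.5, 46.1 and 44.2 scaled TPM at 44 h to 224, 217 and 225 at 68 h. The values within each time were nearly equal, and the change was 2.27 ± 0.46 (adjusted p 0.0015). Fcer2a was at 40.6, 29.4 and 46.7 at 44 h and 158, 138 and 58.6 at 68 h, a smaller change of 1.48 ± 0.45 (adjusted p 0.036) with replicate 3 just above the 44 h range. Pecam1, an adhesion receptor with an inhibitory tail, was also higher (1.59 ± 0.34, adjusted p 0.0023). Homing receptors overlap this list: of 21, 3 were higher and none lower, with or without replicate 3, and 7 were higher in the low-Actb fit. Among these were Ccr6, the receptor of the chemokine CCL20 (2.14 ± 0.44, adjusted p 0.0015), and Gpr183, the oxysterol receptor that places B cells at the follicle edge. Gpr183 was at 18, 19 and 21.2 at 44 h and 54.1, 51.2 and 56.6 at 68 h (1.43 ± 0.33, adjusted p 0.005), with no overlap of the groups. Ccr7 was at 172, 166 and 172 at 44 h and 402, 360.2 and 116 at 68 h, and replicate 3 fell below the 44 h libraries while the other 68 h libraries lay above them (adjusted p 0.54). S1pr1, the receptor for egress, likewise missed the threshold (adjusted p 0.18), and both were called higher in the low-Actb fit (adjusted p 0.021 and 0.0025).

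The transcription factors that hold B cell identity were not called in either direction (0 of 20 in limma with all 6 libraries, 3 at an unadjusted p under 0.05, 0 without replicate 3 and 1 higher in the low-Actb fit), with a median of 0.54. Pax5 was at 15.5, 18.1 and 26.6 scaled TPM at 44 h and 22.6, 22.8 and 19.3 at 68 h, with overlapping groups (adjusted p 0.91). Bcl6, the repressor of germinal centre cells, was at 2.50, 1.74 and 3.66 at 44 h and 6.97, 4.77 and 6.74 at 68 h. Its groups did not overlap, but the adjusted p was 0.078. Irf8, Bach2 and Spib each had replicate 3 below every 44 h library and the other 68 h libraries above them (adjusted p 0.42, 0.99 and 0.79), and of these Irf8 was called in the low-Actb fit (adjusted p 0.033). Of 30 B cell receptor signalling genes 1 was higher, Cd79b, a chain of the receptor's signalling pair, at 369, 343 and 381 at 44 h and 979, 1021 and 831 at 68 h (1.37 ± 0.36, adjusted p 0.015). No library overlapped. As a share, 1 of 30 was near the 3.00% of all genes that were higher. In the low-Actb fit 10 of the 30 were higher, where 6.45% of all genes were.

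Antigen presentation genes rose in part. Of 17 MHC class II genes 4 were higher and none lower, with or without replicate 3, and the median change was 1.00. In the low-Actb fit 11 were higher, with a median of 1.27. H2-Ob, a chain of the H2-O protein that holds back peptide loading in B cells, was at 31.2, 26.9 and 32.9 scaled TPM at 44 h and 227, 217 and 162 at 68 h. Its lowest 68 h library was several times its highest 44 h one, and the change was 2.68 ± 0.37 (adjusted p 9.9e-06). H2-Oa, its partner chain, changed by 1.93 ± 0.46 (adjusted p 0.0071), H2-Eb1 by 1.29 ± 0.37 and H2-DMa, part of the loading catalyst, by 1.26 ± 0.34. Among 27 costimulatory, activation and inhibitory receptors 7 were higher and none lower, with or without replicate 3, and the median was 0.81 (10 higher in the low-Actb fit). Cd86, a ligand of CD28 on T cells, was at 28.7, 20.9 and 32.2 at 44 h and 76.1, 71 and 70.9 at 68 h (1.40 ± 0.35, adjusted p 0.01). The groups did not overlap and replicate 3 lay with the others. Cd80, the other CD28 ligand, went from 1.56, 1.28 and 1.71 at 44 h to 6.47, 7.51 and 20.1 at 68 h (2.13 ± 0.35, adjusted p 1.2e-04). Pirb, an inhibitory receptor for MHC class I, was at 0.649, 1.05 and 1.28 at 44 h and 13.3, 15.3 and 8.26 at 68 h (2.71 ± 0.44, adjusted p 8.7e-05). Both were low at 44 h and higher in every 68 h library. Siglecg, which damps B cell receptor signals, changed by 1.74 ± 0.43, and the death receptor Fas by 1.75 ± 0.40 (adjusted p 0.0045). Cd69 was at 41.7, 34.5 and 62 at 44 h and 77.3, 77 and 34.8 at 68 h and was not called (adjusted p 0.68).

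A few growth inhibitors rose. Of 20 genes for cell cycle arrest and quiescence 4 were higher and none lower, with a median of 1.42, and without replicate 3 only Mxd4 was called and the median was 0.87. In the low-Actb fit 5 were higher and the median was 0.86. Mxd4, which competes with Myc for its partner Max, was at 1.06, 2.41 and 1.94 scaled TPM at 44 h and 13.5, 17.8 and 21.6 at 68 h. The groups were far apart, and the change was 2.74 ± 0.35 (adjusted p 3.4e-06, and 7.3e-05 without replicate 3). Btg1, an antiproliferative gene of resting lymphocytes, was at 16.1, 22 and 15.3 at 44 h and 96.3, 142 and 816 at 68 h. All 68 h libraries exceeded those at 44 h and replicate 3 exceeded them most, for a change of 3.60 ± 0.84 (adjusted p 0.0053), or 2.67 without it (adjusted p 0.082, and 7.7e-04 in the low-Actb fit). Its relative Btg2 showed the same layout, at 17.8, 21.4 and 20.0 at 44 h and 67.3, 68.8 and 744 at 68 h (2.88 ± 0.81, adjusted p 0.022). Without replicate 3 its change was 1.74 (adjusted p 0.29, and 3.4e-06 in the low-Actb fit). Mxi1, another partner of Max, changed by 1.85 ± 0.49, or 1.06 without replicate 3 (adjusted p 0.25, and 0.016 in the low-Actb fit). Of 23 p53 targets 5 were higher and none lower (3 higher without replicate 3, 8 higher and 1 lower in the low-Actb fit), with a median of 0.70. Sesn1, which restrains growth through mTORC1, was at 17.8, 17.2 and 18.1 at 44 h and 69.5, 70.9 and 32.8 at 68 h (1.57 ± 0.36, adjusted p 0.0047). Its 68 h values lay above all at 44 h. Plk2, a stress-induced kinase, changed by 1.88 ± 0.43 (adjusted p 0.0043).

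Interferon response genes rose in part. Of 34 members 9 were higher and none lower (8 higher without replicate 3, 15 higher and 1 lower in the low-Actb fit), with a median of 0.82, while 6 estimates were below 0. Gbp2, a guanylate-binding protein of host defence, was at 23.2, 19.7 and 21.2 scaled TPM at 44 h and 108, 98.8 and 51.1 at 68 h. Every 68 h library exceeded every 44 h one, and the change was 1.89 ± 0.41 (adjusted p 0.0031, and 0.0022 without replicate 3). Gbp7 of the same family was at 10.4, 11.5 and 10.1 at 44 h and 45.5, 38 and 262 at 68 h, with replicate 3 far above the others. Its change of 2.75 ± 0.74 was 1.87 without that library (adjusted p 0.2, and 0.028 in the low-Actb fit). Gbp7 shares exon bases with a gene model on the same strand. The RNA sensor Ddx58 was at 15.1, 12.6 and 13.9 at 44 h and 44.6, 38 and 145 at 68 h (2.10 ± 0.56, or 1.51 without replicate 3, with an adjusted p of 0.18 there and 0.0018 in the low-Actb fit). Mx1, an antiviral GTPase, changed by 1.78 ± 0.41 (adjusted p 0.059 without replicate 3, and 0.0093 in the low-Actb fit).

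The interferon-stimulated response motif, written as GAAA, 2 bases of any kind and GAAA, and searched on both strands of the same 250 bases, was found in 14 of 25 members with a promoter, among them 4 of 7 that were higher, and in 3.35% of 10554 tested genes with a promoter. Interferon genes are known for this motif, so its share describes the list and not the change. The promoters of Gbp7 and Gbp2 are shown because they are higher genes of a shared family that both hold the motif. It is in capitals as it reads on the strand of the gene, again as the reverse complement. Gbp7 lies on the plus strand at chr3:142530086-142530335, and Gbp2 on the plus strand at chr3:142620413-142620662 (RefSeq, GRCm38.p6).
Gbp7: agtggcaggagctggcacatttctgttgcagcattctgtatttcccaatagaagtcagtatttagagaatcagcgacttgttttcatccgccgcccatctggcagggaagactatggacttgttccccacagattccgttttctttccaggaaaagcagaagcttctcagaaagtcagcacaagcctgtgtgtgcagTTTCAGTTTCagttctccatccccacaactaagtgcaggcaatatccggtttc
Gbp2: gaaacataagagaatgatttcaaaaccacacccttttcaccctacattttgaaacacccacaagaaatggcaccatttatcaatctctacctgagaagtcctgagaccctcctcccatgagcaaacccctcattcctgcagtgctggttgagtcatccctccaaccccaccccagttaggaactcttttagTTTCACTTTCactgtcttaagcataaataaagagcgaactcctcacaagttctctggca
For ribosome biogenesis genes the E-box CACGTG, the motif of Myc and Max, was found in 1 of 24 promoters (Nop2), against 9.61% of tested genes with a promoter. The 3 motifs were chosen after the gene changes were known.

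Among secreted factors the direction differed by gene. Of 18 tested chemokines and cytokines 2 were higher and 3 lower (2 and 1 without replicate 3, 2 and 2 in the low-Actb fit). Il12a, a chain of IL-12 and IL-35, was at 12.6, 22 and 13.1 scaled TPM at 44 h and 59.6, 74 and 93.7 at 68 h (2.20 ± 0.48, adjusted p 0.0032). Ltb, the membrane ligand lymphotoxin β, was at 149, 194 and 136 at 44 h and 619, 665 and 467 at 68 h (1.86 ± 0.49, adjusted p 0.014). Both were higher in every 68 h library. Il6, an inflammatory cytokine, was at 5.41, 1.76 and 4.17 at 44 h and 0, 1.53 and 5.26e-07 at 68 h (-1.72 ± 0.52, adjusted p 0.037, 0.17 without replicate 3 and 0.058 in the low-Actb fit). Cxcl10, a chemokine for T cells, changed by -2.02 ± 0.60 (adjusted p 0.034, 0.18 without replicate 3 and 0.005 in the low-Actb fit). Il10 overlapped between the times (adjusted p 0.96), with replicate 3 the highest. Of 26 NF-kB genes 1 was higher (Tnip3, an inhibitor of the pathway, 1.52 ± 0.29) and 2 lower, Il6 and Nfkbib. Without replicate 3, 1 was higher and none lower, and in the low-Actb fit 4 were higher and 1 lower. Of 24 immediate early genes 3 were higher and none lower (2 higher without replicate 3, 5 higher and 1 lower in the low-Actb fit). Egr1, a factor that receptor signals switch on within minutes, was at 4.53, 3.40 and 5.29 at 44 h and 44.9, 41.1 and 9.19 at 68 h (2.34 ± 0.58, adjusted p 0.0094). Replicate 3 was nearest to the 44 h libraries but still above them. Fos, of the same class, changed by 2.86 ± 0.59 (adjusted p 0.0018).

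Igj had the largest decrease among the called genes that were named. Under this older symbol the table lists Jchain, whose product links IgM and IgA into polymers and is abundant in antibody-secreting cells. It lies on the minus strand of chromosome 5 (GRCm38, 88519809 to 88527891). It was at 21.8, 22.3 and 24.6 scaled TPM at 44 h and 2.47, 0.611 and 1.80 at 68 h. Every 68 h library was below every 44 h one, and replicate 3 lay between the other 2. The change was -3.25 ± 0.50 (adjusted p 4.3e-05), and -3.34 without replicate 3 (adjusted p 3.0e-04). Beside Igj 2 other plasma cell genes were called, a share near the 7.14% over all genes. Both were higher, where 3.00% of all genes were. Of 26 members 2 were higher (Cd38 and Zbtb20) and 1, Igj, was lower, and without replicate 3 Igj was the only call (3 higher and 1 lower in the low-Actb fit). Prdm1 was at 5.37, 3.05 and 3.27 at 44 h and 3.54, 5.87 and 5.36 at 68 h (0.28 ± 0.34, adjusted p 0.68). These ranges overlapped. Irf4 (-0.68 ± 0.36, adjusted p 0.29), Xbp1 (-0.72 ± 0.62, adjusted p 0.55) and the surface marker Sdc1 (-1.05 ± 0.59, adjusted p 0.33) were not called, and replicate 3 was the lowest of the 6 libraries for all 3. For Irf4 and Sdc1, but not Xbp1, all 3 libraries at 68 h lay below all 3 at 44 h, as for 13.5% of all genes. Of 24 endoplasmic reticulum chaperones 1 was lower (3 in the low-Actb fit), Creld2 (-0.88 ± 0.25, adjusted p 0.026), and of 28 genes for protein translocation and N-glycan transfer none was called with limma (7 at an unadjusted p under 0.05). Hspa5, the main chaperone of that compartment, was not called (adjusted p 0.28), though its 68 h libraries all lay below the 44 h ones.

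Antibody constant regions and switching followed another course. Of 8 heavy chain constant genes Ighd alone was called, without replicate 3 also Ighg3 (adjusted p 0.046), and in the low-Actb fit 3 were higher. Ighg3, the IgG class that LPS induces, was at 34.9, 37.9 and 47.8 scaled TPM at 44 h and 118, 131 and 65.8 at 68 h (1.31 ± 0.43, adjusted p 0.059). All 68 h libraries exceeded those at 44 h. Ighm, the IgM constant region, overlapped (adjusted p 0.79), with replicate 3 at less than the rest. Ighg2b and Ighg1 also overlapped (adjusted p 0.6 and 0.83). Constant regions of IgG classes resemble each other, so reads may be split between them. Of 29 genes of class switching and somatic mutation 2 were lower, the repair enzymes Apex1 (-1.31 ± 0.24) and Hmces (-1.34 ± 0.34), of which Apex1 was called without replicate 3 (adjusted p 0.011), and 4 were lower in the low-Actb fit.

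Il27, the p28 chain of interleukin 27, was the lower cytokine gene that was called without replicate 3 too. Its gene lies on the minus strand of chromosome 7 (GRCm38, 126589010 to 126594941), and its exons share bases with Apobr on the opposite strand. It was at 8.08, 5.29 and 7.18 scaled TPM at 44 h and 0.156, 0.181 and 0 at 68 h. All 3 libraries at 68 h were near 0, and the change was -2.81 ± 0.31 (adjusted p 8.1e-07, and 1.2e-05 without replicate 3).

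**Figure D3:**
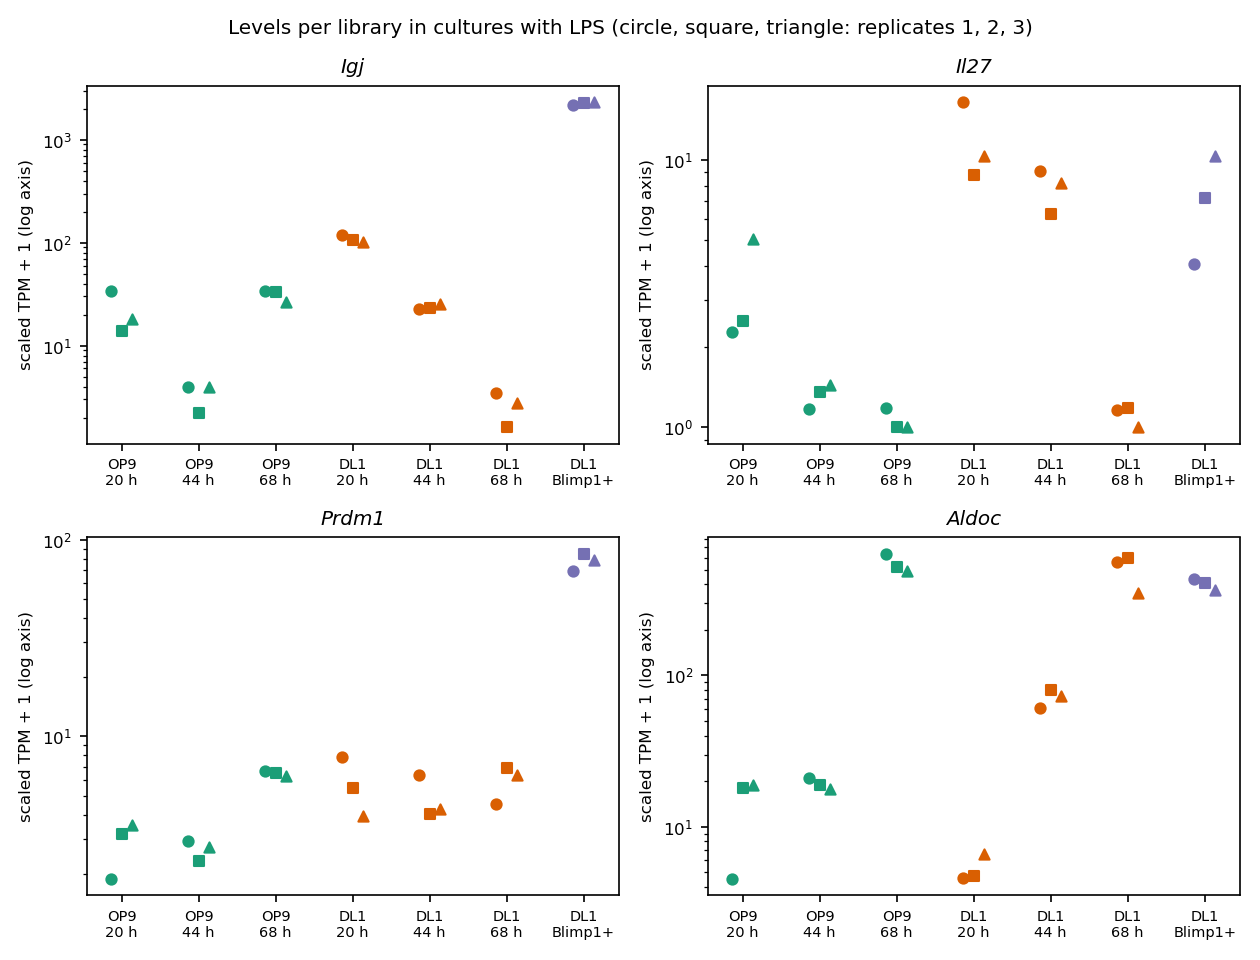
Scaled TPM + 1 (log axis) of 4 genes in each library with LPS, by stroma and time, with the Blimp1+ sort at the right; circle, square and triangle are replicates 1, 2 and 3. On OP9-DL1 Igj was lower at each later time, at between 0.611 and 2.47 scaled TPM at 68 h, whereas on OP9 it lay lowest at 44 h and its 68 h libraries were at 25.7 to 32.9.

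Notch pathway genes were called in small number, though the share of targets called higher exceeded the 3.00% over all genes. Of 12 tested Notch targets 2 were higher, Gpr183 (above) and Il2ra, the IL-2 receptor chain CD25, at 9.90, 6.01 and 11.6 scaled TPM at 44 h and 27.7, 26.4 and 18.2 at 68 h (1.32 ± 0.33, adjusted p 0.0088). Both were called without replicate 3, and in the low-Actb fit, where Myc of this list was lower. On OP9 without the ligand Gpr183 rose alike (1.39 ± 0.33, adjusted p 0.006 in limma), and Il2ra was not called (0.40 ± 0.33, adjusted p 0.61). For neither gene was the difference between the stromas called. Dtx1, a target that marks Notch2 signalling in B cells, was at 47, 35.4 and 32.5 at 44 h and 70.6, 59.7 and 25.8 at 68 h (adjusted p 0.8). Hes1 (2.16, 4.57 and 0.930 at 44 h and 0.296, 2.67 and 23.9 at 68 h) was high in replicate 3 alone (adjusted p 0.82). Hes5 and Nrarp overlapped between the times (adjusted p 0.75 and 0.72). Of 27 receptors and machinery genes none was called in limma with all 6 libraries (2 at an unadjusted p under 0.05), without replicate 3 or in the low-Actb fit. Notch2 was at 3.94, 5.18 and 3.77 at 44 h and 5.85, 6.30 and 513 at 68 h, a change of 2.49 ± 1.46 (adjusted p 0.35) that was 0.43 without replicate 3. Of 19 marginal zone genes 1 was higher (Ccr6), or 3 without replicate 3, and 6 were higher and 1 lower in the low-Actb fit. Cd1d1, the lipid-presenting molecule high in those cells, was at 9.51, 9.10 and 11.9 at 44 h and 25.2, 20.8 and 13.3 at 68 h (adjusted p 0.078, 0.045 without replicate 3 and 0.0036 in the low-Actb fit). Cr2, the complement receptor CD21, was called in the low-Actb fit only (adjusted p 0.083, 0.1 without replicate 3 and 0.041).

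The largest increases included genes of no list. Dapk2, a calmodulin-regulated death-associated kinase (GRCm38, chromosome 9, 66158223 to 66272242, plus strand), was at 1.68, 1.71 and 1.37 scaled TPM at 44 h and 32.3, 30.7 and 30.6 at 68 h. The libraries within a time were nearly equal and the times far apart, and the change was 3.64 ± 0.37 (adjusted p 1.4e-07). Gh, the growth hormone gene, was at 3.24, 2.12 and 2.62 at 44 h and 27.9, 32.8 and 220.5 at 68 h (4.05 ± 0.68, adjusted p 1.4e-04), with replicate 3 the highest. It lies on the same strand of chromosome 11 as Cd79b, which was higher too, 9475 bases past its end, and whether reads reach it from Cd79b was not tested. N4bp2l1 (3.11 ± 0.51) and Ms4a6c (2.80 ± 0.62), a member of the CD20 family, were called with or without replicate 3. Mylpf, a myosin light chain, Dhrs3, a retinal reductase, Isoc2b and Fam81a also had large increases (3.68 ± 0.96, 3.00 ± 0.86, 3.12 ± 0.74 and 3.02 ± 0.81). None of them was called without replicate 3 (adjusted p 0.13, 0.33, 0.051 and 0.26), and in the low-Actb fit all but Mylpf were (adjusted p 0.072, 0.0016, 0.026 and 0.0089). Aldoc, a glycolytic aldolase, was at 59.9, 78.8 and 72.2 at 44 h and 559.6, 596 and 347 at 68 h (2.79 ± 0.54, adjusted p 7.8e-04). It was higher in every 68 h library, but of the 32 glycolysis and hypoxia genes only Aldoc and Egln1, an oxygen sensor, were higher, and the list's median was -0.39. Without replicate 3 only Aldoc was called and the median was 0.02. In the low-Actb fit Aldoc was higher and 3 were lower, and the median was -0.0007. Bnip3, a hypoxia gene of mitophagy, was at 498, 398 and 511 at 44 h and 536, 485 and 172 at 68 h, with replicate 3 the lowest (adjusted p 0.71). Other large decreases outside the lists were those of Usp50 (-2.78 ± 0.47), a member of the ubiquitin protease family that shares exon bases with the gene model Gm10774 on its strand, Sssca1 (-2.32 ± 0.42) and the splicing factor Snrpd3 (-2.46 ± 0.71), of which Snrpd3 was not called without replicate 3 (adjusted p 0.29, and 0.006 in the low-Actb fit).

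**Figure D4:**
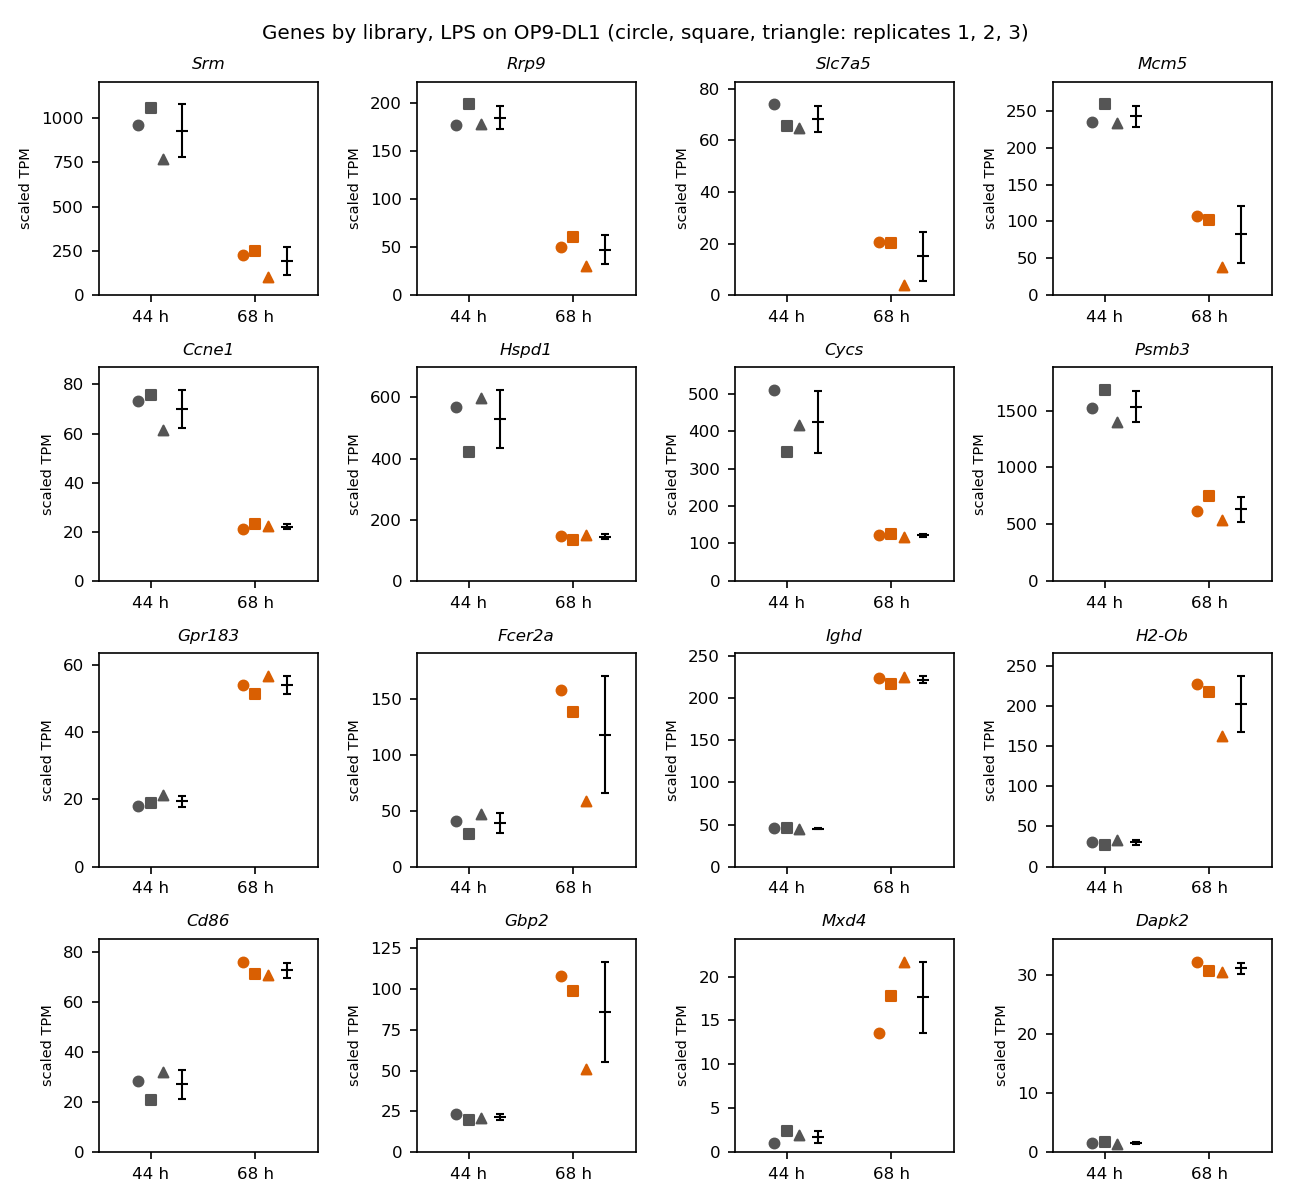
Scaled TPM of 16 genes in each library with LPS on OP9-DL1 at 44 h (grey) and 68 h (orange); symbols are replicates and the bar beside them is the mean with its SD (n = 3), on axes that start at 0. In each panel the 3 libraries of 68 h lie wholly above or below those of 44 h, as for H2-Ob (31.2, 26.9 and 32.9 at 44 h and 227, 217 and 162 at 68 h). All panels show called genes, of which 1112 of 1115 did not overlap, so this separation follows from the choice of genes.

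The remaining lists gave small numbers of calls, where 3.00% of all genes were higher and 4.14% lower. Heat shock genes were lower, and cytoskeleton and Bcl2 family genes higher, in more than these shares. The cholesterol, MHC class I and Toll-like receptor lists also lay above 3.00% higher, each through 1 gene alone. Cholesterol and fatty acid synthesis had 1 of 30 higher (Hmgcs1, 1.02 ± 0.30, adjusted p 0.15 without replicate 3), MHC class I and the immunoproteasome 1 of 19 (H2-T22, 0.71 ± 0.23), Toll-like receptors and LPS sensing 1 of 21 (Tlr6, 1.28 ± 0.36, adjusted p 0.1 without replicate 3), and the Bcl2 family and death genes 2 of 27 (Fas and Birc2). In the low-Actb fit these 4 lists had 5, 8, 6 and 4 higher, and MHC class I 1 lower. Of 24 cytoskeleton genes 3 were higher (Vim, Arpc5 and Arpc2) and 1 lower (Tuba1b). Without replicate 3, 1 was higher and 1 lower (adjusted p 0.07 for Vim and 0.2 for Arpc5), and in the low-Actb fit 3 were higher and 3 lower. Of 15 heat shock genes 4 were lower, the chaperonin pair above, Hspa8 (-1.03 ± 0.24) and Gadd45b (-1.18 ± 0.29), or 3 without replicate 3 and 7 in the low-Actb fit. No gene of DNA methylation and Polycomb (20 tested), stroma (23), T cells (7), myeloid cells (6), erythroid cells (4) or NK cells (3) was called in limma with all 6 libraries, and the counts at an unadjusted p under 0.05 were 4, 1, 0, 0, 0 and 1. Without replicate 3 the Polycomb methyltransferase Ezh1 was called, higher, and in the low-Actb fit Ezh1 was higher and 2 of that list, Dnmt1 and Ezh2, were lower.

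With LPS on OP9 without the ligand, 1077 genes were called from 44 to 68 h (6.90%), 449 higher (2.88%) and 628 lower (4.02%), in libraries not shared with OP9-DL1. Of the calls 640 were common, 57.4% of those on OP9-DL1 and 59.4% of those on OP9, and 639 of them had the same direction, Igj being the exception. Without the libraries of high Actb 2012 genes were called on OP9 (12.9%). Ribosome biogenesis had a median of -1.68 on OP9 (24 of 28 lower), DNA replication -0.88 (12 of 35 lower), MHC class II 1.03 (3 of 17 higher) and quiescence genes 1.89 (8 of 20 higher). Glycolysis and hypoxia genes had a median of 0.88 on OP9 (11 of 32 higher) and -0.39 on OP9-DL1. That difference between stromas was not tested for the list. With anti-IgM on OP9-DL1 28 genes were called (0.179%), 20 higher (0.128%) and 8 lower (0.0512%), or 525 without the libraries of high Actb (3.36%). The order of the stimuli turned in fits of only the groups compared. There 1611 of 11191 genes were called with anti-IgM and 514 of 11375 with LPS on OP9-DL1. These counts depend on how the spread is pooled and do not rank the size of the changes. Of the 28 genes 16 were shared, 1.43% of the calls with LPS and 57.1% of those with anti-IgM, 15 in the same direction. Ribosome biogenesis had a median of -0.79 with anti-IgM (1 of 28 lower) and the ATF4 and serine list -0.16 (none called).

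**Figure D5:**
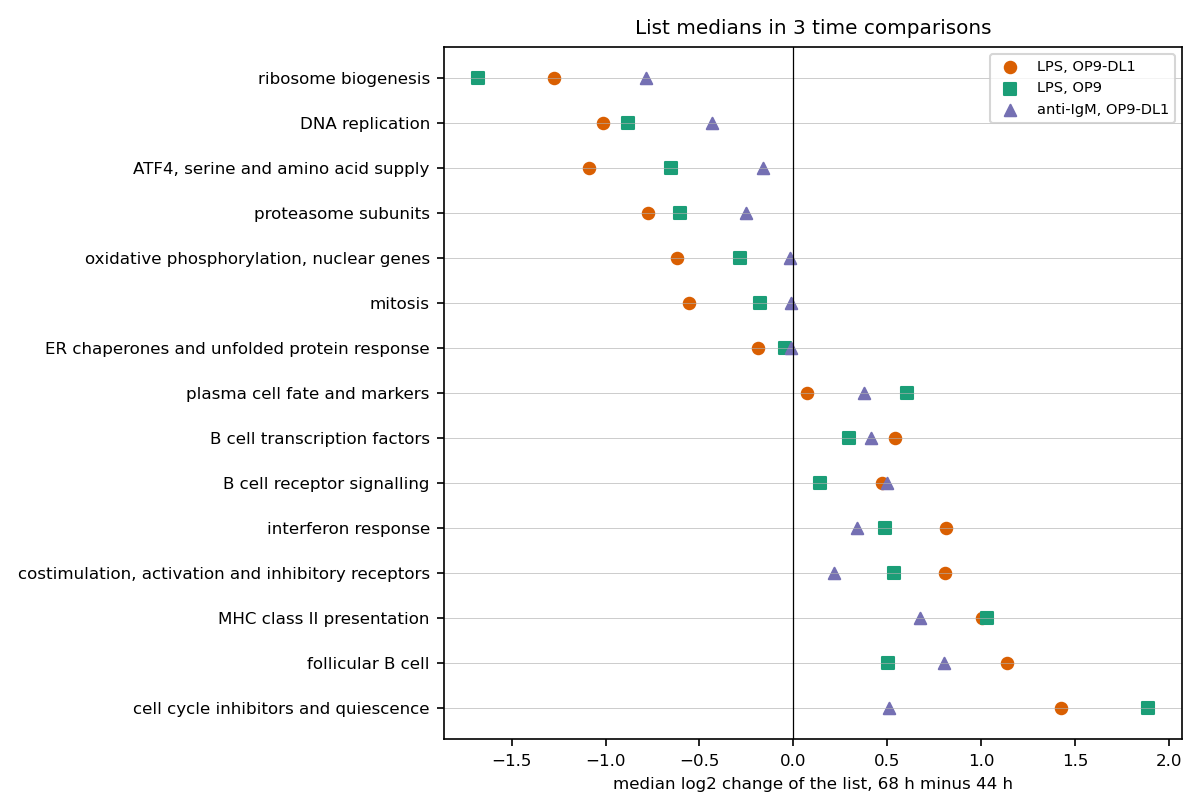
Median change from 44 to 68 h of each gene list, in log2(scaled TPM + 1), with LPS on OP9-DL1 (orange circles), LPS on OP9 (green squares) and anti-IgM on OP9-DL1 (purple triangles); the vertical line marks no change. The ribosome biogenesis medians are -1.28, -1.68 and -0.79, and all 3 comparisons lie left of 0 for the lists from ribosome biogenesis to proteasome subunits.

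The difference between the stromas in this step was called for 2 genes (0.0128%), both lower on OP9-DL1 than on OP9, with 319 genes at an unadjusted p under 0.05. Igj was at 2.93, 1.24 and 2.98 scaled TPM on OP9 at 44 h and at 32.9, 32.3 and 25.7 at 68 h, a change of 3.25 ± 0.50, so it rose on OP9 where it fell on OP9-DL1. The difference was -6.50 ± 0.71 (adjusted p 1.5e-06), and it was called under each of the 21 other settings or left-out libraries. Il27 on OP9 was at 0.173, 0.360 and 0.436 at 44 h and at 0.178, 0 and 0 at 68 h. It was already near 0 there at 44 h, and its difference was -2.49 ± 0.44 (adjusted p 0.02). It was lost in 9 of 12 fits that left out a library, namely replicates 1 and 3 at 44 h and 2 and 3 at 68 h on OP9-DL1, and replicates 1 and 2 at 44 h and each at 68 h on OP9 (adjusted p 0.0213 to 0.119 over the 12). It was called in 6 of 9 other settings, and not with the authors' log2 table, a pseudocount of 0.1 or the 5 TPM filter (adjusted p 1.00, 1.00 and 0.053). Several genes whose change looked unlike between the stromas were not called in this test. Ighd changed by 2.27 ± 0.46 on OP9-DL1 and -0.20 ± 0.46 on OP9 (difference 2.47 ± 0.66, adjusted p 0.62). Fcer2a changed by 1.48 ± 0.45 and -0.39 ± 0.45 (adjusted p 1.00), and Egr1 by 2.34 ± 0.58 and -0.38 ± 0.58 (adjusted p 1.00). Without the libraries of high Actb 8 genes were called (0.0512%), 4 in each direction (0.0256%).

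Between the stimuli on OP9-DL1 the step differed for 9 genes (0.0576%), 5 lower (0.0320%) and 4 higher (0.0256%) with LPS than with anti-IgM, with 1098 genes at an unadjusted p under 0.05. Igj rose with anti-IgM, from 13.2, 12.3 and 15.8 scaled TPM at 44 h to 96.7, 78.8 and 112 at 68 h, and the difference was -5.96 ± 0.71 (adjusted p 1.2e-05). Il27 was at 0 in all 6 libraries with anti-IgM (difference -2.81 ± 0.44, adjusted p 0.0015). Dapk2 stayed under 1 scaled TPM with anti-IgM, against its increase with LPS (difference 3.39 ± 0.53, adjusted p 0.0015). Psph, the tubulin Tubb4b and Polr2g, a subunit of RNA polymerase II, fell with LPS and were not called with anti-IgM, where their changes were 0.15 ± 0.23, 0.01 ± 0.17 and 0.10 ± 0.17. Their differences were -1.58 ± 0.33, -1.36 ± 0.24 and -1.25 ± 0.24 (adjusted p 0.048, 0.0097 and 0.025). Ube2l6, the conjugating enzyme of ISG15, and Anxa4, a calcium-dependent membrane binder, rose with LPS, and their changes with anti-IgM were 0.22 ± 0.18 and -0.62 ± 0.24 (differences 1.37 ± 0.26 and 1.70 ± 0.34, adjusted p 0.022 and 0.042). Lipc, hepatic lipase, was named after its values were seen. It was at 0.679, 0 and 0.612 at 44 h and 3.25, 4.85 and 3.17 at 68 h with LPS, and its difference was 1.84 ± 0.37 (adjusted p 0.043). The difference of Igj was called in each of 12 fits that left out a library and in 9 of 9 other settings. Those of Il27 and Dapk2 were called in each of the 12 and in 7 of the 9, and were lost with the authors' log2 table (adjusted p 0.243 and 0.762) and with a pseudocount of 0.1 (adjusted p 0.080 and 0.589). That of Tubb4b was lost without replicate 2 of anti-IgM or replicate 3 of LPS at 44 h. Those of Polr2g and Ube2l6 were lost in 9 of the 12, that of Anxa4 in 11, and those of Psph and Lipc in all 12 (adjusted p up to 0.222). Over the 9 other settings Ube2l6 was called in 7, Tubb4b, Polr2g and Anxa4 in 6, Psph in 3 and Lipc in 1. Without the libraries of high Actb 115 genes differed (0.737%), 54 higher (0.346%) and 61 lower (0.391%).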

How the data were processed

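RNA of 45 libraries in 15 groups of 3 was measured as polyA transcripts. The authors deposited TPM per gene symbol and a second table of log2 values, and, per the submitters' processing notes, the tools were kallisto and limma and the builds GRCm38 and mm10, with no version. The transcript set and the use of strand in counting are not given in the sources used here. Of 142 named genes, 42 share exon bases with a gene on the opposite strand and 8 with one on the same strand, so their reads may not be told apart. The read number of each library was estimated from the floor of the authors' deposited log2 table. The series text and the labels name different SMART-seq kits, and which library ran on which instrument is not stated.

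Each library was scaled by its size factor (0.436 to 1.42), the median ratio to the mean profile over 9462 genes, and log2 was taken after adding 1. Genes with at least 1 TPM in at least 3 libraries were tested, 15614 of 30317. A single limma fit (version 3.58.1 in R 4.3.3) estimated 15 group means from the 45 libraries together, using limma's trend and robust options, so the spread is pooled over the groups. Benjamini-Hochberg adjustment ran over all genes tested within a comparison, with 0.05 as the limit for a call. The differences between time steps are contrasts of the same model. The model was tested on simulated data with normal noise, independent genes, the same spread in each group and no outlying library. That simulation cannot show how the model handles libraries such as replicate 3 at 68 h. Positions are from GENCODE vM21 (GRCm38) and promoters from RefSeq.

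The members, the 42 lists, the rule for naming and the tests were chosen with earlier results of these data known. Named were a panel of 38 B cell, Notch and stress genes, the 12 called genes that increased most and the 12 that decreased most, provided that their groups did not overlap and 1 group averaged 10 scaled TPM or more, up to 4 called members of each list with the largest change, and the called differences between steps, up to 6 each way. Lipc, whose difference was called at a lower level, was added after its values were seen. Variable segments of antibodies and genes without a proper name were not named, and 110 of the 142 were called. Some of the 142 are not reported here. Alternatives were a pseudocount of 0.1, quantile normalization, unscaled TPM, the log2 table of the authors, filtering at 5 TPM or not at all, blocking on replicate number, fitting only the groups compared, no libraries above 5000 TPM of Actb, and each library left out in turn. Fits without 1 library assume that the 2 left vary like the other groups.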

Additional observations from a re-analysis of the deposited data

Results flagged for a closer look

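In 11 cases the change from 44 to 68 h with LPS on OP9-DL1 differed from the same step elsewhere by limma's test of the difference itself (adjusted p below 0.05). Against LPS on OP9 these were Igj, with a difference of -6.50 on the log2(scaled TPM + 1) scale, and Il27, with -2.49. Against anti-IgM on OP9-DL1 the differences were -5.96 for Igj, -2.81 for Il27, -1.58 for Psph, -1.36 for Tubb4b, -1.25 for Polr2g, 1.37 for Ube2l6, 1.70 for Anxa4, 1.84 for Lipc and 3.39 for Dapk2. For Igj all 3 libraries at 68 h lay below all 3 at 44 h on OP9-DL1 with LPS. They lay above all 3 at 44 h on OP9 with LPS and on OP9-DL1 with anti-IgM. These are the same values that gave its differences, and no further test of them. The groups of 3 are too small for a search for outlying samples.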

How the results depend on the processing

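None of the 142 named genes changed sign under any setting while called. The count of called genes with LPS on OP9-DL1, 1115 as reported, was 603 with TPM as deposited (315 higher, 288 lower), 612 with the authors' log2 table (204 higher, 408 lower), 514 with only the groups compared (163 higher, 351 lower) and 2086 without the libraries of high Actb (1007 higher, 1079 lower). The share of higher calls was 42.0% as reported, 52.2% as deposited, 33.3% with the authors' table and 31.7% with only the groups compared. The median change of all genes was 0.13 as reported, 0.09 as deposited, -0.06 with the authors' table and -0.0003 after quantile normalization. Leaving out each library gave 582 to 1069 calls. Of 110 called genes named, 58 were called as deposited, 48 with the authors' table, 50 with only the groups compared, 62 without replicate 3 at 68 h and 107 without the libraries of high Actb. The medians of the lists for ribosome biogenesis, DNA replication, ATF4 and amino acids, proteasome, oxidative phosphorylation, mitosis, follicular cells, quiescence, interferon, receptors, MHC class II and p53 kept their sign in all 15 alternatives, and those of NF-kB genes did not in 9. The cause of these shifts was not tested.

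The difference between the stromas was called for 2 genes as reported, for 1 with the authors' table, a pseudocount of 0.1 or the 5 TPM filter, for 10 with only the groups compared, for 8 without the libraries of high Actb and for 1 to 3 when a library was left out. The difference between the stimuli was called for 9 genes, for 4 as deposited, 1 with the authors' table, 101 with only the groups compared, 115 without the libraries of high Actb and 3 to 7 when a library was left out. For LPS on OP9, 1077 calls became 548 as deposited, 533 with the authors' table, 2012 without the libraries of high Actb and 638 to 934 when a library was left out. For anti-IgM on OP9-DL1, 28 calls became 14 as deposited, 0 with the authors' table or a pseudocount of 0.1 (by limma, with 829 and 1061 genes at an unadjusted p under 0.05), 1611 with only the groups compared, 525 without the libraries of high Actb and 4 to 17 when a library was left out.

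Deviations from the group means correlated at 0.117, -0.071 and -0.098 for replicate numbers 1, 2 and 3, and at -0.209 to 0.162 for unlike numbers. With 3 libraries a group, and replicate 3 at 68 h apart from the others, these values cannot show whether the numbers pair the samples. The replicate block gave 1232 calls, and all 110 called genes named remained called. Estimated reads of 5.92 to 8.62 M a library, and 3 libraries a group, limit what can be seen for genes near 0 TPM such as Prdm1, Hes1 and Nrarp.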

Other observations

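Levels outside the 24 h step place some of these genes in a longer course, as values with no test. Ighd with LPS on OP9-DL1 was at 102, 220.4 and 195 scaled TPM at 20 h, lower at 44 h, back in that range or above at 68 h, and at 40.2, 39.4 and 39.1 in the Blimp1+ sort. Igj was at 117, 104 and 99.7 at 20 h and at 2176, 2265 and 2309.8 in the Blimp1+ sort, far above each 44 and 68 h library. Prdm1 was at 6.87, 4.49 and 2.94 at 20 h and at 68.3, 83.7 and 77.8 in that sort. Dapk2 was at 0.240, 2.84 and 0.945 at 20 h and at 35.5, 28.3 and 29.7 in the Blimp1+ sort, a range that holds its 68 h libraries. Il27 was at 15.4, 7.77 and 9.36 at 20 h and at 3.07, 6.18 and 9.33 in the Blimp1+ sort, so that the 68 h libraries were the only LPS libraries on OP9-DL1 near 0. All 3 libraries at 20 h on OP9-DL1 with LPS were above 5000 TPM of Actb.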
